A study of Canis lupus familiaris with 32 samples.

Results

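Skin 48 h after a house dust mite patch was compared with skin 6 h after the same patch in the same 8 atopic dogs. The 16 biopsies are those the labels place on the challenged side at these times, 8 at each, paired by dog, out of 32 biopsies in the series. All 8 are Maltese-beagle atopic dogs, 5 males and 3 females aged 5.5 to 10.5 years, that had been sensitized through the skin to Dermatophagoides farinae and chosen because a mite challenge gave them acute lesions. The patches lay on the side of the chest, and the other 16 biopsies are challenged skin at 24 h and skin 6 h after mineral oil alone, the control. Each biopsy is of whole skin, and oil-patched skin at 24 h or 48 h was not analysed here, so that allergen and time since patching cannot be told apart in the difference between 48 h and 6 h.

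Between 6 h and 48 h the alarmins S100A9, S100A12 and S100A8, the acute phase protein SAA1 and the T cell chemokines CCL17 and CCL19 rose in all 8 dogs, by 3.09 to 5.37 on the log2 scale. IL13RA2, the decoy receptor for IL-13, rose by 3.87. Of 16 linked dendritic cell genes 9 rose, of 14 macrophage and monocyte genes 8, and of 13 cell cycle genes 10. Of 10 linked adipocyte genes 8 fell and of 14 fibroblast and matrix genes 9. Over all 10512 linked genes 8.22% rose and 4.7% fell. The cytokine genes IL9, IL13 and IL33 rose, by 3.37, 1.76 and 1.60. The 5 cytokine genes IL4, IL5, IL17A, IL22 and IFNG passed no call, and neither did any of 8 neutrophil genes. These 5 read below the median signal of the arrays, where a missing call does not show an unchanged level. IL4, IL22 and 2 of the neutrophil genes had a limma adjusted p below 0.05 within dogs but not after muscle adjustment.

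Atopic dermatitis is an inflammatory skin disease in which T helper 2 cells release IL-4, IL-13 and related cytokines, and keratinocytes answer with chemokines and alarmins. CCL17, made by dendritic cells and keratinocytes, draws T cells that carry the receptor CCR4. The S100 alarmins are calcium-binding proteins stored in neutrophils and monocytes and made by stressed keratinocytes. The dermis below holds fibroblasts and their matrix, and the subcutis holds adipocytes and, in the dog, a thin sheet of skeletal muscle.

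Values are log2 array signals as deposited, and a difference is 48 h minus 6 h on that scale, where 1 is a doubling. Over the 16 arrays the median log2 signal was 4.83 to 4.91. No background level was available, and the size of a difference that starts below this median is uncertain. A gene is said to have risen or fallen only where limma gave an adjusted p below 0.05 in 2 fits with the same sign: one with the dog as a block, and the same fit with each array's muscle signal as a covariate. Of 42860 probe sets, none of them filtered for low signal, 3215 rose (7.5%) and 2269 fell (5.29%), 572 and 240 of them at least 2-fold. Without muscle in the fit 12603 passed (29.4%), and 7119 of these were not called in both fits. The median difference over all probe sets was -0.03. The authors' gene table tied 10512 genes to a probe set each, and of these 864 rose (8.22%) and 494 fell (4.7%). The 48 h biopsies lay wholly above the 6 h biopsies for 1249 probe sets (2.91%) and wholly below for 670 (1.56%).

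The biopsies differed in how much muscle they held. The muscle score, the mean log2 signal of MYH2, TNNC2, MYLPF and ACTN2, read 4.32, 10.41 and 10.71 at 6 h (lowest, median and highest of 8 dogs) and 3.38, 3.49 and 3.71 at 48 h. It was lower at 48 h in 8 of 8 dogs (2-sided exact permutation test within dogs, p = 0.0078, which is the smallest that 8 pairs can give, and 0.0137 after adjustment over 7 array measures). The 6 h biopsies of dogs 1, 2, 3, 5 and 6 read 10.32 to 10.71 and those of dogs 4, 7 and 8 read 4.32 to 4.90, so that 5 of the 6 h arrays and none of the 48 h arrays were among the 9 muscle-rich arrays of the series. MYH2, a myosin heavy chain of fast muscle, read 4.05, 12.70 and 12.98 at 6 h and 2.44, 2.65 and 3.06 at 48 h. Of 11 linked muscle genes outside the score 10 had a limma adjusted p below 0.05 in the within-dog fit, all lower at 48 h, and 0 were called in both limma fits. These 11 genes had a median difference of -2.64, and of 0.25 after muscle adjustment. The plot of both fits shows how far the adjustment moved each gene.

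**Figure D1:**
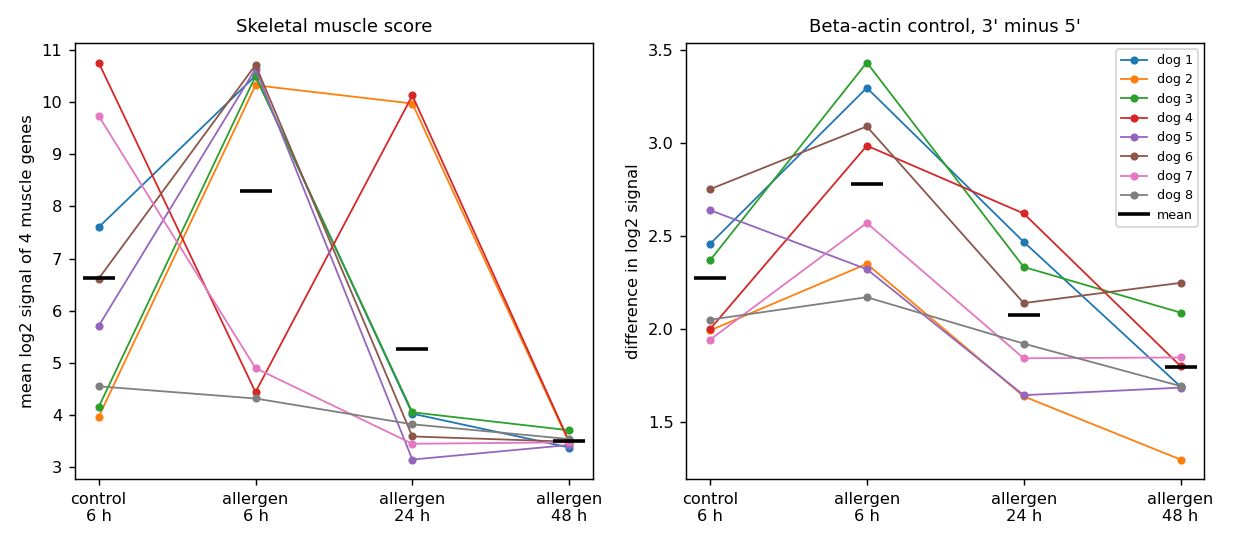
Muscle score (left, mean log2 signal of 4 muscle genes) and the 3' minus 5' difference of the beta-actin control (right, log2) in all 32 biopsies, with points joined by dog and a black bar at each group mean. The 6 h biopsies spread from 4.32 to 10.71 in muscle score, and the 48 h biopsies lie between 3.38 and 3.71.

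**Figure D2:**
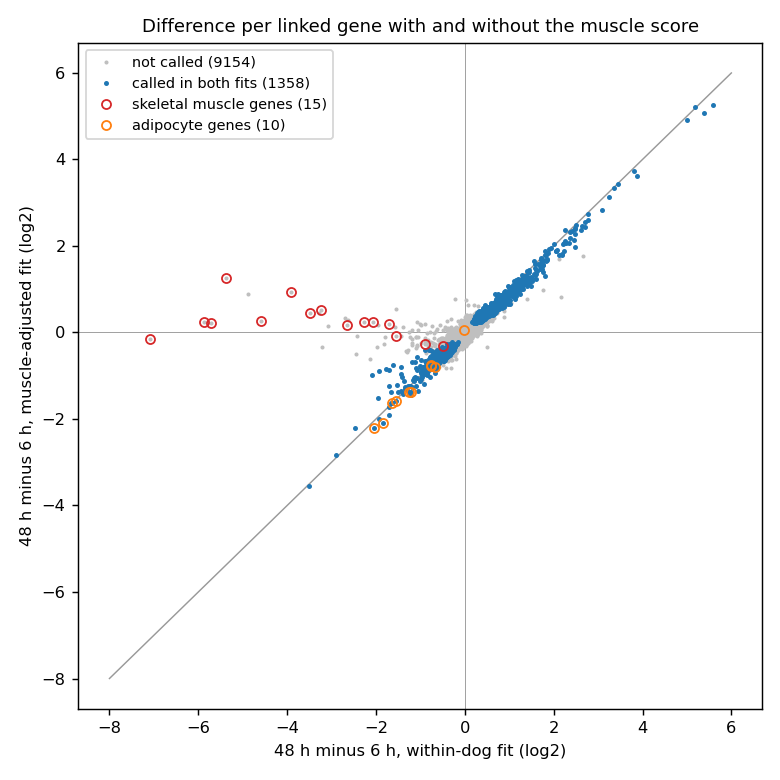
Difference between 48 h and 6 h for 10512 linked genes, in the within-dog fit (x axis, log2) and after muscle adjustment (y axis, log2), with the line of equality in grey. The 15 linked muscle genes run from -0.50 to -7.09 on the x axis and from -0.31 to 1.26 on the y axis. Of the 10 adipocyte genes 8 were called lower in both fits.

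A measure of RNA integrity also differed between the groups. The beta-actin control probe sets, whose 3' minus 5' difference widens as RNA degrades, gave 2.78 ± 0.48 at 6 h and 1.79 ± 0.29 at 48 h (SD, n = 8 each), below the 6 h value for every dog (exact permutation, adjusted p = 0.0137). A second 5' probe set of the same control gave 2.70 ± 0.14 and 2.69 ± 0.23 (exact permutation p = 0.953), and an older actin pair gave 0.52 ± 0.88 and 0.97 ± 0.28 (exact permutation p = 0.188). The GAPDH pair went the other way, from 1.20 ± 0.29 to 1.61 ± 0.25, an increase for 7 of 8 dogs (exact permutation p = 0.0156, adjusted p = 0.0219). At 6 h the 5 muscle-rich biopsies read 0.70 to 1.15 in the GAPDH pair and -0.45 to 0.24 in the older actin pair. Those of dogs 4, 7 and 8, poor in muscle, read 1.36 to 1.70 and 1.01 to 1.99. At 48 h dogs 4, 7 and 8 read 1.56 to 1.60 and 0.90 to 1.35. Both pairs thus differed with muscle content at 6 h, and the part of muscle in them was not tested. With the first actin difference as a further covariate in both fits, 349 probe sets were called in place of 5484. Of 117 called genes that the text may name, 12 remained called there, namely S100A9, S100A8, IL13RA2, CCL19, LOC100685470, GPR171, FCGR3A, PSMB8, NLRP10, FMO2, CLEC3B and MFAP4. The part of RNA integrity in the other differences was not tested.

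Single arrays and single dogs also carried weight. The 6 h biopsy of dog 6 gave 14 of 33 values that stood apart from the other 7 dogs, and its 48 h biopsy gave 8. Without dog 6 there were 5746 calls, and without dog 4, 2098. Leaving out a dog removes its 4 biopsies. Those of dog 4 read 10.76 (control), 4.44 (6 h), 10.13 (24 h) and 3.49 (48 h) in muscle score. Without dog 4, 67 of the 117 named calls remained. With the 9 muscle-rich arrays left out, the within-dog fit called 1604 probe sets and 75 of the 117 named genes. Only dogs 4, 7 and 8 then keep both biopsies. Among skin markers KRT10, a keratin of the upper epidermis, read 10.47, 11.96 and 12.59 at 6 h and 11.72, 12.34 and 12.89 at 48 h.

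Alarmins and an acute phase protein were among the largest rises. The 3 S100 alarmins and SAA1 rose, 4 of 7 linked members of this list, while LCN2, an iron-withholding protein chosen here after its value was seen, fell (-1.10). S100A9, a subunit of the antimicrobial complex calprotectin, read 5.37, 6.86 and 8.83 at 6 h and 10.60, 12.56 and 13.39 at 48 h. No 48 h biopsy overlapped a 6 h biopsy. The rise was 5.37 (SE 0.48, limma adjusted p = 3.94e-08) in 8 of 8 dogs, or 41.5-fold, and 5.07 after muscle adjustment (adjusted p = 1.31e-05). Its partner S100A8 read 8.31, 9.42 and 10.47 at 6 h and 12.63, 13.27 and 13.63 at 48 h, again without overlap. It rose by 3.82 (SE 0.33, limma adjusted p = 2.37e-08) in 8 of 8 dogs, and by 3.73 after muscle adjustment (adjusted p = 6.27e-06). S100A12, a ligand of the receptor RAGE, read 5.27, 7.12 and 9.45 at 6 h and 10.97, 12.28 and 12.98 at 48 h and rose by 5.00 (SE 0.48, limma adjusted p = 1.1e-07) in 8 of 8 dogs. In control skin these 3 genes averaged 8.29, 10.57 and 8.94, between their levels at 6 h and at 48 h. SAA1, serum amyloid A, read 6.96, 8.22 and 10.09 at 6 h and 10.86, 12.16 and 12.40 at 48 h and rose by 3.44 (SE 0.34, limma adjusted p = 1.36e-07) in 8 of 8 dogs. In control skin SAA1 read 8.95 to 10.19 (lowest and highest dog). LOC611632, described in the authors' table as ceruloplasmin-like, had the largest rise of all named genes, 5.58 (SE 0.60, limma adjusted p = 3.35e-07) in 8 of 8 dogs. It read 2.61, 3.71 and 8.13 at 6 h and 6.89, 10.45 and 11.94 at 48 h, and 2 biopsies at 6 h lay above the lowest at 48 h. Without the muscle-rich arrays the within-dog fit called 4 rises and 1 fall in this list, and without dog 4 both fits called 4 and 0.

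**Figure D3:**
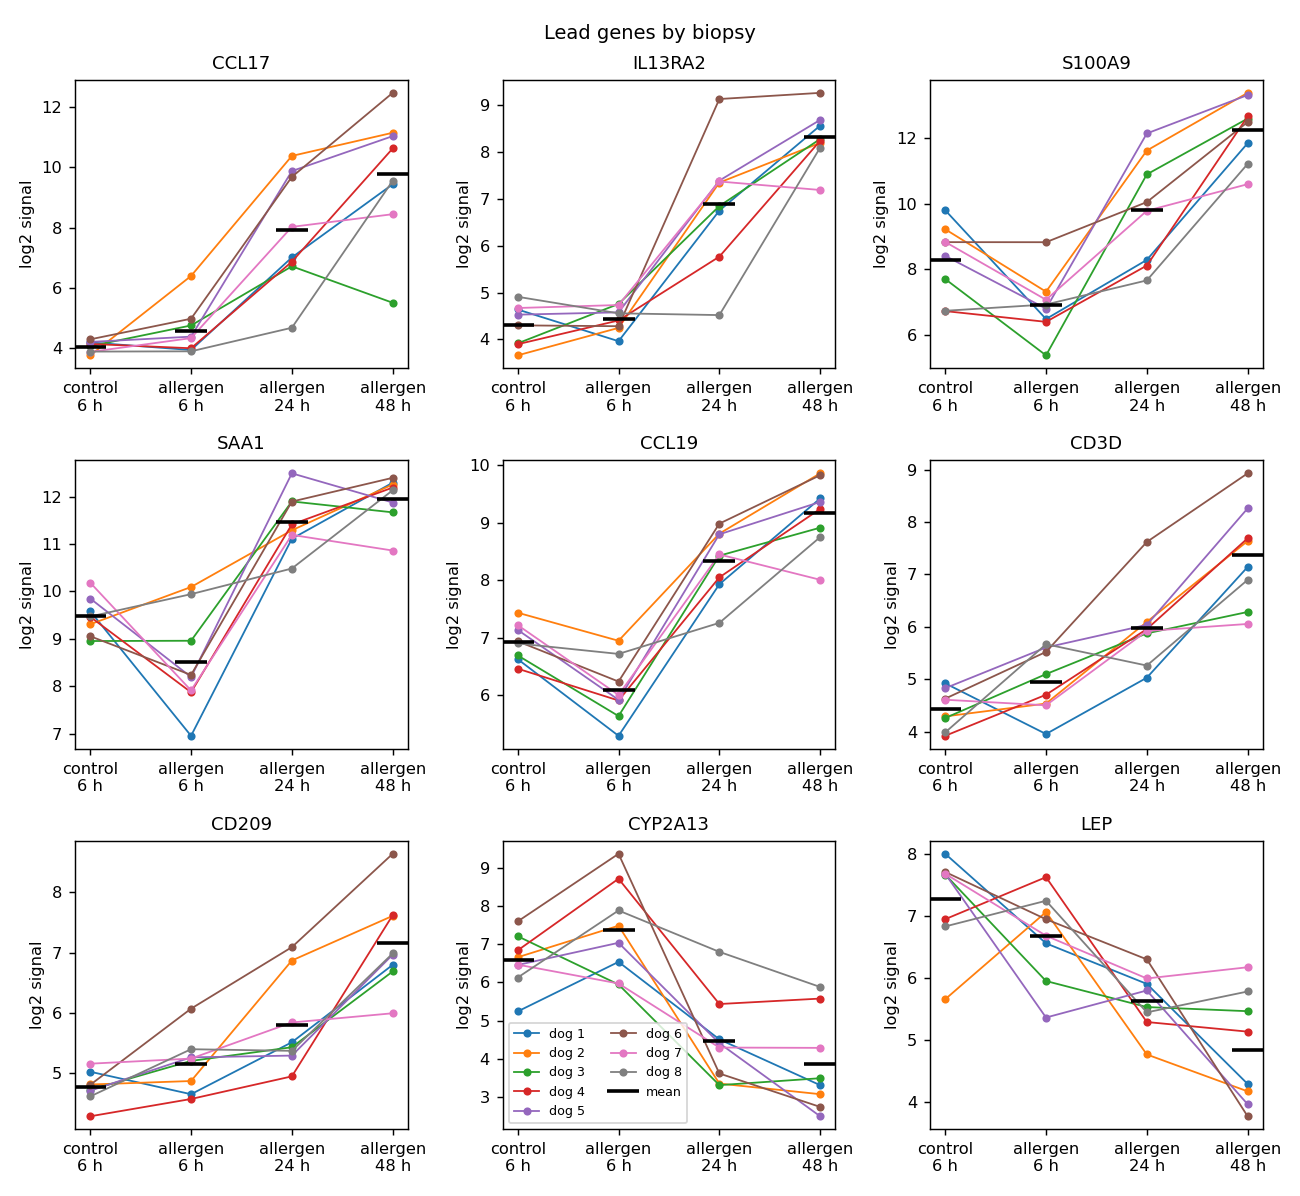
Log2 signal of 9 lead genes (y axis) in control skin and in challenged skin at 6 h, 24 h and 48 h (x axis), with points joined by dog and a black bar at each group mean. In CCL17 dog 3 stays low at 48 h, and in IL13RA2, S100A9, SAA1, CCL19 and CD3D every 48 h biopsy lies above every 6 h biopsy.

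The S100 genes were still climbing after 24 h, whereas SAA1 had largely reached its level by then. From 24 h to 48 h S100A9 rose by 2.45, S100A12 by 2.10 and S100A8 by 1.49, each called in both fits, and LOC611632 by 3.37. From 6 h to 24 h 1635 probe sets rose (3.81%) and 1780 fell (4.15%). From 24 h to 48 h 647 probe sets rose (1.51%) and 57 fell (0.133%). SAA1 averaged 11.47 ± 0.61 at 24 h against 11.96 ± 0.50 at 48 h, a difference of 0.49 that was not called. These intervals share their arrays with the comparison of 48 h with 6 h.

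Genes of the type 2 response rose in part. Of 19 linked members 9 rose and 0 fell, with a median of 0.33. CCL17 read 3.90, 4.36 and 6.40 at 6 h and 5.51, 10.08 and 12.46 at 48 h. Dog 3 was far below the others at 48 h, and its biopsy lay below the highest 6 h biopsy, that of dog 2. CCL17 rose by 5.18 (SE 0.58, limma adjusted p = 4.76e-07) in 8 of 8 dogs, and by 5.20 after muscle adjustment (adjusted p = 6.43e-05). IL13RA2, which binds IL-13 without passing its signal on, read 3.96, 4.48 and 4.76 at 6 h and 7.19, 8.26 and 9.26 at 48 h, without overlap. It rose by 3.87 (SE 0.35, limma adjusted p = 5.15e-08) in 8 of 8 dogs, and by 3.62 after muscle adjustment (adjusted p = 1.6e-05). IL9, a cytokine that acts on mast cells, read 2.03, 2.66 and 2.83 at 6 h and 2.83, 6.59 and 7.75 at 48 h. The 6 h signals of IL9 all lay below the array median. Its rise of 3.37 (SE 0.50, limma adjusted p = 1.76e-05) in 8 of 8 dogs came from 6 dogs with differences of 3.19 to 4.91, while dogs 3 and 7 differed by 0.14 and 0.60.

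IL13, the cytokine that IL13RA2 binds, read 3.74, 3.97 and 6.33 at 6 h and 4.77, 6.16 and 7.71 at 48 h. Dog 7 was highest at 6 h and was the 1 dog with no increase, at -0.19. IL13 rose by 1.76 (SE 0.29, limma adjusted p = 6.49e-05) in 7 of 8 dogs, and by 1.40 after muscle adjustment (adjusted p = 0.009). The alarmin IL33, held in keratinocyte and endothelial nuclei, read 6.34, 6.68 and 9.03 at 6 h and 7.89, 8.65 and 9.16 at 48 h, and its 6 h biopsy of dog 6 lay inside the 48 h range. IL33 rose by 1.60 (SE 0.24, limma adjusted p = 2.21e-05) in 7 of 8 dogs, and by 1.87 without dog 6 (SE 0.20). POSTN, periostin, a matrix protein induced by IL-13, rose by 2.24 from 7.53 ± 0.44 to 9.77 ± 0.56 without overlap. CCL24, which draws eosinophils through CCR3, rose by 1.54 in 8 of 8 dogs. The CCL24 call ended without the dog as a block, and in the within-dog fit without the muscle-rich arrays. The further rises were CCL13, another CCR3 ligand (0.95), and CRLF2, a chain of the TSLP receptor (0.33), both named after their values were seen. IL4 differed by 0.44 (limma adjusted p = 0.016, and 0.0684 after muscle adjustment) and IL5 by 0.20 (adjusted p = 0.191), and neither was called. Both read below the array median in every biopsy of both groups. Without the muscle-rich arrays the within-dog fit called 5 of the 19, and without dog 4, 6, where IL13 had an adjusted p of 0.175 after muscle adjustment.

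Of 15 linked cytokines and receptors of the type 1, type 17 and type 22 responses 0 were called in limma, 4 had an unadjusted p below 0.05 within dogs, and their median difference was 0.09. Among them IFNG read 2.90, 3.24 and 3.62 at 6 h and 2.93, 3.22 and 3.35 at 48 h and differed by -0.04 (limma adjusted p = 0.698). IL17A differed by 0.00 (adjusted p = 0.975) and IL22, a keratinocyte growth cytokine, by 0.37 (adjusted p = 0.0072, and 0.135 after muscle adjustment). CCR6, a receptor of type 17 cells, differed by 0.42 in 8 of 8 dogs (adjusted p = 0.002, and 0.0967 after muscle adjustment). IFNG, IL17A and IL22 lay below the array median in every biopsy, where a missing call does not show an unchanged level.

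Acute inflammation and adhesion molecules of the vessel wall followed. Of 16 linked acute inflammatory genes 8 rose and 0 fell, with a median of 1.18, and without the muscle-rich arrays the within-dog fit called 9. Without dog 4 both fits called 4. The hyaluronan binder TNFAIP6, a TNF target, read 5.95, 6.76 and 8.52 at 6 h and 8.76, 9.62 and 10.22 at 48 h and rose by 2.45 (SE 0.36, limma adjusted p = 1.51e-05) in 8 of 8 dogs. SOD2, a mitochondrial antioxidant enzyme, rose by 1.30 without overlap between the groups. The endothelial adhesion molecules SELP (P-selectin), SELE (E-selectin) and ICAM1 rose by 1.51, 1.29 and 1.08, and were the 3 risers among 10 linked endothelial genes. These 3 are also among the 8 acute inflammatory genes that rose. Each of these 3 calls ended without dog 4 (adjusted p of 0.0963 to 0.206 after muscle adjustment), and those of SELP, SELE and ICAM1 ended in 5, 2 and 4 of the 8 fits that left out 1 dog. The endothelial genes PECAM1, ESAM and PROX1 differed by -0.39, -0.30 and -0.23 (limma adjusted p = 0.0419, 0.0058 and 0.0298 within dogs). They were not called (adjusted p of 0.366 to 0.506 after muscle adjustment). VWF and KDR differed by 0.19 and 0.03 and were not called. IL6 read 2.24, 3.10 and 7.00 at 6 h and 5.26, 6.53 and 8.23 at 48 h, and the groups overlapped widely. Its difference of 2.66 (limma adjusted p = 0.000653) was 1.76 after muscle adjustment (adjusted p = 0.0665) and was not called. In the IL-1 and IL-36 family 4 of 9 linked genes rose, led by the epidermal cytokine IL36G (1.37), and IL37, an anti-inflammatory member, fell by 1.06. The IL37 call ended when any of dogs 1, 2, 3, 4, 5 and 8 was left out.

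Chemokines for lymphocytes rose with markers of T cells. Of 13 linked lymphocyte chemokines and receptors 6 rose and 1 fell. CCL19, the ligand of CCR7 that guides T cells and dendritic cells, read 5.29, 5.96 and 6.94 at 6 h and 8.00, 9.30 and 9.85 at 48 h, without overlap. It rose by 3.09 (SE 0.21, limma adjusted p = 1.77e-09) in 8 of 8 dogs, and by 2.84 after muscle adjustment (adjusted p = 8.59e-07). In control skin CCL19 read 6.46 to 7.43. CXCL16, the ligand of CXCR6, rose by 1.58 and CCL5, which draws effector T cells, by 1.88. CXCL12, a stromal chemokine, fell by 0.88, from 10.27 ± 0.47 to 9.39 ± 0.29 in 8 of 8 dogs. Without dog 4 the calls of CCL5 (adjusted p = 0.0634 after muscle adjustment) and CXCL12 (adjusted p = 0.116) ended and 2 of the 13 rose, and without the muscle-rich arrays 2 rose and 1 fell in the within-dog fit.

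Of 16 linked T cell genes 6 rose and 0 fell. CD3D, part of the CD3 signalling unit of T cells, read 3.95, 4.90 and 5.67 at 6 h and 6.05, 7.39 and 8.93 at 48 h. No biopsies overlapped between the groups. It rose by 2.41 (SE 0.27, limma adjusted p = 5.63e-07) in 8 of 8 dogs, and by 2.35 after muscle adjustment (adjusted p = 8.76e-05), and it rose from 24 h to 48 h as well (1.39). The lymphocyte receptor GPR171 rose by 2.70, the adhesion molecule CD2 by 1.32, the costimulator CD28 by 1.13 and CD3G, of the same unit as CD3D, by 1.11. CD28 started from a mean of 3.66 at 6 h, below the array median. The CD28 call ended without dog 2 or dog 8, and in the within-dog fit without the muscle-rich arrays. That fit called 4 of the 16 T cell genes, and without dog 4 both fits called 5. FOXP3, the regulatory T cell factor, differed by -0.09 and was not called. Among 11 linked genes of cytotoxic cells the granule proteases GZMB and GZMA and the cystatin CST7 rose, by 1.44, 0.78 and 0.67. The GZMB differences ran from 0.11 to 3.45. Each of these 3 calls ended without dog 4 (adjusted p of 0.138 to 0.192 after muscle adjustment), and also without 2 or 3 other dogs taken singly, and 0 of 11 were called without the muscle-rich arrays. In the same list PRF1, perforin, differed by -0.27 and was higher at 48 h in 0 of 8 dogs. It was not called (limma adjusted p = 0.0254, and 0.166 after muscle adjustment). FASLG and EOMES differed by 0.04 and 0.00 and were not called. Of 10 linked B cell and plasma cell genes MZB1, a plasma cell chaperone, was the 1 to rise (0.88), near the share of all linked genes (8.22%). The MZB1 call ended when any of dogs 1, 2, 4, 6 and 7 was left out. In whole biopsies, more or fewer cells of a type and more or less RNA per cell cannot be told apart.

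Dendritic cell and macrophage genes rose together. Of 16 linked dendritic cell genes 9 rose and 0 fell, with a median of 0.58. CD209, a lectin of dermal dendritic cells and macrophages, read 4.57, 5.23 and 6.07 at 6 h and 6.00, 6.98 and 8.64 at 48 h, and the lowest 48 h biopsy lay within the 6 h range. It rose by 2.00 (SE 0.24, limma adjusted p = 9.9e-07) in 8 of 8 dogs, and by 2.05 after muscle adjustment (adjusted p = 8.65e-05). CLEC4G, a further lectin, rose by 2.47, BATF3, which cross-presenting dendritic cells need to develop, by 2.22 and IDO1, which degrades tryptophan, by 1.85, each in 8 of 8 dogs without overlap. LAMP3, a marker of mature dendritic cells, rose by 1.12 in 7 of 8 dogs, from signals below the array median. Its call ended without dog 4 (adjusted p = 0.151 after muscle adjustment) and in the within-dog fit without the muscle-rich arrays. The CCR7 and CCL22 genes, a receptor and a chemokine of mature dendritic cells, differed by 0.22 and 0.18 and were not called.

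Of 14 linked macrophage and monocyte genes 8 rose and 0 fell, with a median of 0.70. CD86, which rose by 1.34, is counted in this list and in the dendritic list. FCGR3A, a receptor for immunoglobulin G, read 5.83, 6.70 and 7.46 at 6 h and 7.85, 9.16 and 9.93 at 48 h, without overlap. It rose by 2.27 (SE 0.22, limma adjusted p = 1.38e-07) in 8 of 8 dogs, and by 2.08 after muscle adjustment (adjusted p = 4.01e-05). FCGR1A, the high-affinity receptor of that class, rose by 2.37, the actin-binding protein AIF1 by 1.83 and the adaptor TYROBP by 1.69. The complement genes C1QB and C1QC of resident macrophages differed by 0.15 and -0.11 and were not called. Without the muscle-rich arrays the within-dog fit called 5 of the 16 dendritic and 5 of the 14 macrophage genes, and without dog 4 both fits called 6 and 7.

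Of 8 linked neutrophil genes 0 were called in limma, and 2 had an unadjusted p below 0.05 within dogs. Their mean log2 signal per array was 3.53 to 3.93 at 6 h and 3.76 to 4.03 at 48 h, below the array median throughout. The granule genes MPO and ELANE differed by -0.10 and -0.01. TREM1, an amplifying receptor of neutrophils and monocytes, differed by 0.75 in 8 of 8 dogs (limma adjusted p = 0.0052, and 0.158 after muscle adjustment). Of 4 linked eosinophil and basophil genes HDC, the enzyme that makes histamine, was the 1 to rise (0.77), and the eosinophil peroxidase EPX differed by -0.01 from a signal of 2.56 to 3.18 at 6 h. Of 6 linked mast cell genes CPA3, mast cell carboxypeptidase, rose by 0.95 along with HDC. KIT, the stem cell factor receptor on mast cells and melanocytes, differed by -0.07 (limma adjusted p = 0.676). The HDC and CPA3 calls ended without dog 4 (adjusted p = 0.109 and 0.136 after muscle adjustment), and that of CPA3 also without dog 1, 2, 3 or 7.

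Antigen processing and innate sensing genes rose as well. PSMB8 and PSMB9, catalytic subunits of the immunoproteasome, and TAPBP, which loads peptides onto MHC class I, were the linked members of antigen presentation, and 3 of 3 rose without overlap. PSMB8 read 5.51, 6.02 and 6.52 at 6 h and 7.18, 7.99 and 8.48 at 48 h, a rise of 1.95 (SE 0.19, limma adjusted p = 1.02e-07) in 8 of 8 dogs. PSMB9 rose by 1.81 and TAPBP by 0.55, the latter from signals below the array median. Of 15 linked subunits of the constitutive proteasome 6 rose, by 0.26 to 0.50, of which 1 was left without dog 4 and 0 in the within-dog fit without the muscle-rich arrays. Of 20 linked interferon response genes 5 rose, led by the guanylate-binding proteins GBP1 (2.06) and GBP5 (1.38) and by IDO1. The antiviral genes MX1 and IFIT1 differed by 0.20 and 0.03 and were not called. Without dog 4, 2 of these 20 and 2 of the 3 antigen presentation genes were called.

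Of 21 linked pattern receptors and inflammasome genes 10 rose and 0 fell, with a median of 0.60. The within-dog fit without the muscle-rich arrays called 6, and both fits without dog 4 called 7. CASP4, an inflammatory caspase that senses endotoxin, read 4.12, 5.13 and 5.90 at 6 h and 6.40, 7.41 and 7.95 at 48 h, without overlap. It rose by 2.26 (SE 0.27, limma adjusted p = 1.1e-06) in 8 of 8 dogs. NLRP10, a NOD-like receptor of the epidermis, rose by 2.18, GSDMC, a pore-forming gasdermin, by 1.81 and TLR8, a sensor of single-stranded RNA, by 1.75. NLRP10 and GSDMC had differences of 1.77 and 1.75 by 24 h, while TLR8 differed by 0.71 at that time and was not called. IL18BP, which neutralizes IL-18, read 6.63, 7.22 and 7.58 at 6 h and 8.53, 10.05 and 10.48 at 48 h and rose by 2.76 (SE 0.27, limma adjusted p = 1.26e-07) in 8 of 8 dogs. In control skin IL18BP read 6.95 to 8.60. LOC100685470, in the authors' table a placenta-specific gene 8 protein-like gene, rose by 3.24, and LOC100686047, a CMRF35-like molecule there, by 2.78.

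**Figure D4:**
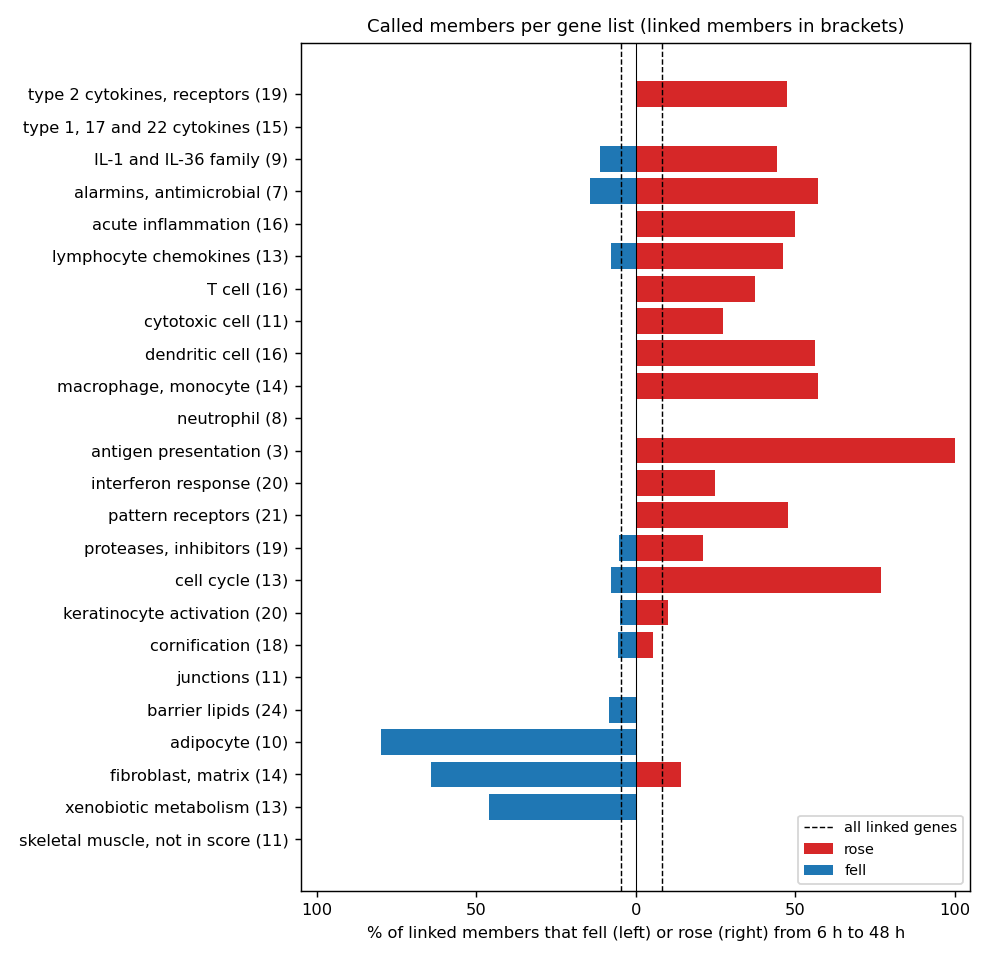
Share of linked members of 24 gene lists that rose (red, right) or fell (blue, left) from 6 h to 48 h, in percent, with the shares of all linked genes as dashed lines (8.22% and 4.7%). Antigen presentation with 3 of 3 members and cell cycle with 10 of 13 lie farthest to the right, and adipocyte with 8 of 10 farthest to the left.

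Proliferation genes rose, while in the lists of the epidermal barrier few genes were called, as over all linked genes. Of 13 linked cell cycle genes 10 rose, with a median of 0.82, and UBE2C, a ubiquitin-conjugating enzyme of mitosis named after its value was seen, fell (-0.32). CCNA2, cyclin A, read 4.88, 6.06 and 6.47 at 6 h and 6.15, 7.21 and 7.99 at 48 h and rose by 1.23 (SE 0.17, limma adjusted p = 6.43e-06) in 8 of 8 dogs. The mitotic kinesin KIF20A rose by 1.22 in 8 of 8 dogs, and by 1.04 without dog 6, whose 6 h biopsy was lowest. The replication helicase subunit MCM4 rose by 1.04 without overlap, from 7.45 ± 0.27 to 8.49 ± 0.28. Without the muscle-rich arrays 6 of the 13 rose in the within-dog fit and 0 fell. CCNA2 and KIF20A also rose from 24 h to 48 h, by 0.87 and 0.78.

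Of 20 linked genes of keratinocyte activation NLRP10 and GSDMC rose and the matrix protein TNC, tenascin, fell by 1.02. KRT16, a keratin of activated epidermis, differed by 0.06 and was not called. Of 18 linked cornification genes LY6D, a surface protein of keratinocytes, rose by 1.35 and KRT15, a keratin of the basal layer and hair bulge, fell by 0.90, both with calls that ended without dog 4 (adjusted p = 0.0839 and 0.105 after muscle adjustment). KRT10 differed by 0.62 (limma adjusted p = 0.048, and 0.343 after muscle adjustment). Of 11 linked junction genes 0 were called in limma and 6 had an unadjusted p below 0.05 within dogs. CLDN1, a tight junction claudin, differed by 0.14 (adjusted p = 0.427). Of 24 linked genes of barrier lipids 2 fell and 0 rose: SCD, a fatty acid desaturase of sebaceous glands and fat (-1.38), and STS, steroid sulfatase (-0.22, from signals of 2.70 to 2.98 at 6 h). Both calls ended without dog 4, and that of STS also without dog 2. ELOVL4, which makes very long chain fatty acids, differed by 0.16 (adjusted p = 0.456). Over all linked genes 8.22% rose and 4.7% fell, and the keratinocyte activation, cornification, junction and barrier lipid lists lay near these shares. In the within-dog fit alone 7 cornification, 3 junction and 7 barrier lipid genes had a limma adjusted p below 0.05, against 29.4% of all probe sets. Of the 20 keratinocyte activation genes 11 did so. Of 8 linked cholesterol synthesis genes EBP and SQLE rose, by 0.85 and 0.66. The SQLE call ended when dog 1, 4, 5 or 7 was left out, and both calls ended without the dog as a block.

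Genes of proteases and tissue remodelling included TIMP1, an inhibitor of matrix metalloproteinases, which read 7.30, 7.99 and 9.42 at 6 h and 9.39, 10.99 and 11.56 at 48 h. TIMP1 rose by 2.71 (SE 0.30, limma adjusted p = 5.02e-07) in 8 of 8 dogs, with the smallest difference in dog 7 (0.83). Of 19 linked proteases and inhibitors 4 rose, among them the metalloproteinase MMP7 (2.48) and CTSC, which activates granule proteases (1.74), and 1 fell, the gelatinase MMP2 (-0.59), named after its value was seen. Among itch mediators and receptors the serotonin receptor HTR7 rose by 0.46 and the prostaglandin receptor PTGER3 fell by 0.55, and these calls ended in 6 and 5 of the 8 fits that left out 1 dog. Of 8 linked JAK-STAT genes JAK2, the kinase below many cytokine receptors, was the 1 to rise (0.98, 8 of 8 dogs). The itch list of 17 linked genes, with 2 rises and 1 fall, and the JAK-STAT list lay near the shares of all linked genes (8.22% and 4.7%).

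Of 10 linked adipocyte genes 8 fell and 0 rose, with a median of -1.24, and of -1.39 after muscle adjustment. Without the muscle-rich arrays the within-dog fit called 6, and without dog 4 both fits called 3. LEP, the adipocyte hormone leptin, read 5.36, 6.82 and 7.63 at 6 h and 3.77, 4.71 and 6.17 at 48 h. The groups overlapped, and the highest 48 h biopsy was that of dog 7. LEP fell by 1.84 (SE 0.33, limma adjusted p = 0.000163) in 8 of 8 dogs, and by 2.10 after muscle adjustment (adjusted p = 0.0013, and 0.0525 without dog 4). ADIPOQ, adiponectin, read 11.35, 12.31 and 12.76 at 6 h and 9.14, 10.70 and 11.76 at 48 h and fell by 1.54 (SE 0.28, limma adjusted p = 0.000137) in 8 of 8 dogs, from -3.61 in dog 6 to -0.05 in dog 3. ABCD2, a peroxisomal transporter of fatty acids, fell by 2.06 and LPL, lipoprotein lipase, by 1.64. The LPL call ended when dog 2, 4, 5 or 6 was left out.

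Of 14 linked fibroblast and matrix genes 9 fell, with a median of -0.59, and POSTN and the proteoglycan VCAN rose. Without the muscle-rich arrays the within-dog fit called 5 falls and 1 rise, and without dog 4 both fits called 4 and 1. The VCAN call ended when any of dogs 1, 2, 3 and 4 was left out, and in the within-dog fit without the muscle-rich arrays. MFAP4, a microfibril-associated protein, read 7.50, 7.89 and 9.19 at 6 h and 5.49, 6.25 and 7.26 at 48 h, without overlap. It fell by 1.66 (SE 0.20, limma adjusted p = 1.29e-06) in 8 of 8 dogs, and by 1.45 without dog 6, whose 6 h biopsy was the highest. OGN, osteoglycin, fell by 1.71 (SE 0.26, limma adjusted p = 2.14e-05) in 8 of 8 dogs, by 1.23 after muscle adjustment (adjusted p = 0.0058) and by 1.34 without dog 6. The OGN call ended without dog 4 (adjusted p = 0.0588 after muscle adjustment). Outside this list, CLEC3B, tetranectin, read 9.22, 9.69 and 11.87 at 6 h and 6.66, 7.43 and 8.16 at 48 h and fell by 2.47 (SE 0.22, limma adjusted p = 4.5e-08) in 8 of 8 dogs, and by 2.25 without dog 6. The Wnt antagonist FRZB fell by 1.92, from 10.91 ± 0.61 to 8.99 ± 0.84, and was 1 of 3 linked Wnt genes of 27 that fell. PDGFRA, a receptor of fibroblasts, differed by -0.02 and was not called.

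Enzymes that handle foreign compounds held the largest 2 falls. Of 13 linked genes 6 fell and 0 rose, with a median of -0.43, and 4 of them were called in the within-dog fit without the muscle-rich arrays. Without dog 4 both fits called 2. CYP2A13, a cytochrome P450, read 5.94, 7.26 and 9.36 at 6 h and 2.49, 3.40 and 5.88 at 48 h. All 48 h biopsies lay below all 6 h biopsies, and the lowest was that of dog 5. The fall was 3.51 (SE 0.45, limma adjusted p = 2.53e-06) in 8 of 8 dogs, and -3.55 after muscle adjustment (adjusted p = 0.000199). FMO2, a flavin monooxygenase, read 7.16, 8.11 and 8.98 at 6 h and 4.05, 5.31 and 5.84 at 48 h and fell by 2.89 (SE 0.28, limma adjusted p = 1.18e-07) in 8 of 8 dogs, again without overlap. CYP1A1, which the aryl hydrocarbon receptor switches on, fell by 1.31 in 8 of 8 dogs, from 6.50 ± 0.75 to 5.19 ± 0.93, against 5.58 ± 0.44 in control skin. Its call ended without dog 4 (adjusted p = 0.127 after muscle adjustment). Most of the fall of CYP2A13 and FMO2 lay before 24 h, with differences of -2.90 and -2.09 between 6 h and 24 h.

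Other falls were smaller once muscle was in the fit. MYOC (myocilin), LMCD1, TCEA3 and RBBP4 fell by 2.09, 1.93, 1.78 and 1.71, and by 0.99, 0.88, 0.83 and 0.87 after muscle adjustment. All 4 of these calls ended without dog 4 (adjusted p of 0.0664 to 0.132 after muscle adjustment), that of RBBP4 also without dog 2, and that of MYOC in 7 of the 8 fits that left out 1 dog and without the block. CRYAB, a small heat shock protein abundant in muscle, and COX7A1, a respiratory chain subunit of muscle, differed by -2.13 and -1.81 within dogs but by -0.62 and -0.27 after muscle adjustment, and were not called. Of 8 linked genes induced by glucocorticoids ZBTB16 and KLF9 fell, by 1.54 and 0.70, and TSC22D3 differed by -0.56 (limma adjusted p = 0.0027, and 0.0579 after muscle adjustment).

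Of 20 linked splicing genes 3 rose, the heterogeneous nuclear ribonucleoproteins HNRNPD (0.70), HNRNPU (0.64) and HNRNPC (0.51), and 2 fell. Of 8 linked heat shock genes 3 rose, led by the chaperone HSPA8 (0.67). Of 11 linked respiratory chain genes SDHD and ATP5A1 rose, by 0.46 and 0.32. Among 15 linked immediate early genes IER3 and BTG2 rose, by 0.72 and 0.63. Of 10 linked clock genes the output factor DBP fell by 0.34. Of 11 linked melanocyte, 6 smooth muscle and 5 red cell genes 0 were called in limma, while 0, 4 and 0 had an unadjusted p below 0.05 within dogs. Of 8 linked nerve and Schwann cell genes MAL, a myelin protein that keratinocytes and other epithelia also hold, fell by 0.80. Of 17 linked hair follicle and gland genes the sebaceous keratin KRT79 rose by 1.11 and the stem cell receptor LGR5 fell by 0.27. Over all linked genes 8.22% rose and 4.7% fell, and the immediate early, clock and hair follicle lists lay near these shares. In lists this short, 1 to 3 called members are not read as a change of the list. Without dog 4 the calls of BTG2, DBP, MAL, KRT79 and LGR5 ended, those of DBP, KRT79 and LGR5 also without other dogs, and 1 of the 3 heat shock rises was left.

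The dogs differed in which genes moved most. Dog 7 had the smallest difference of the 8 dogs in S100A9 (3.53), IL13RA2 (2.46), TIMP1 (0.83), FCGR3A (0.39) and TLR8 (0.12). Dog 3 had the smallest in CCL17 (0.75), IL9 (0.14), CCL5 (-0.29) and CD3D (1.19), and the largest in S100A9 (7.24), S100A12 (7.06) and IL6 (5.51). Dog 6 had the largest difference in CCL17 (7.48), CD3D (3.41) and CYP2A13 (-6.63) and the smallest in S100A12 (2.89) and TNFAIP6 (0.31). Each of these is a difference between single biopsies, and no repeat biopsy of a dog at a time was among the samples.

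**Figure D5:**
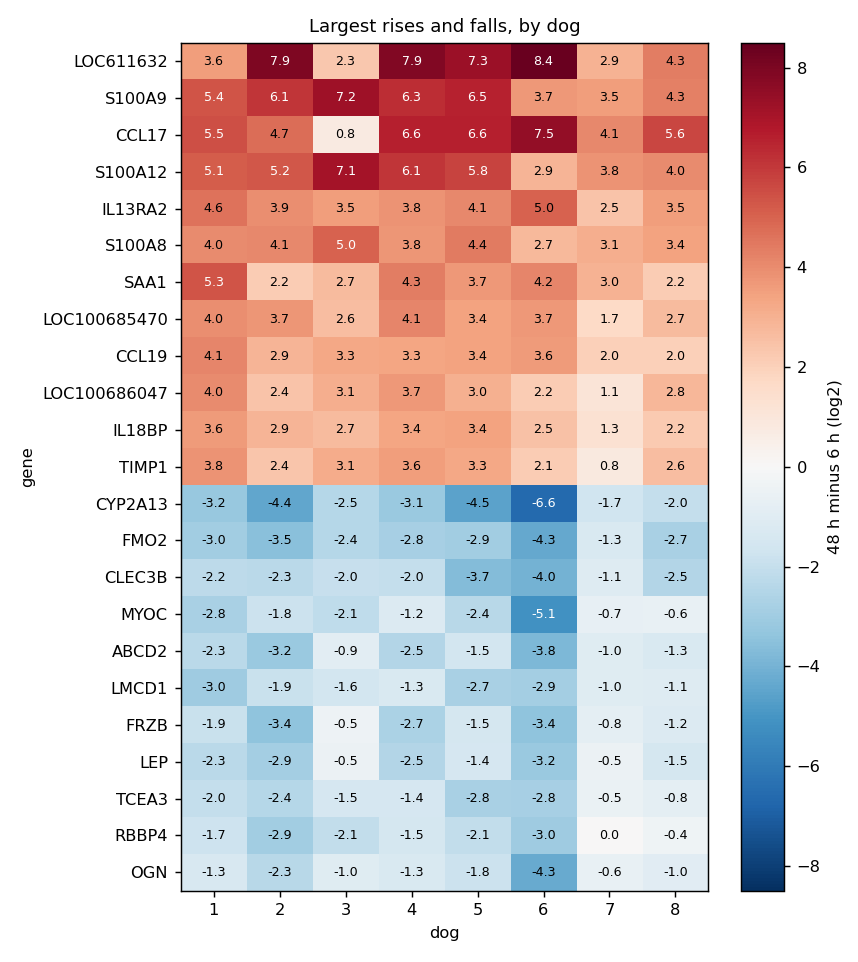
Difference between 48 h and 6 h (log2, colour and printed value) in each of the 8 dogs (columns) for 12 of the largest rises and 11 of the largest falls (rows). Dog 7 has the smallest difference in 14 of the 23 genes, and dog 3 combines the largest S100A9 difference, 7.24, with a CCL17 difference of 0.75.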

How the data were processed

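The deposited value table holds log2 signals of 43035 probe sets on 32 arrays, 1 per biopsy, and was used as deposited. How the arrays were summarized and normalized, and on which genome build, is not given in the sources used here. Per the labels' protocols, biotin-labelled cDNA was made from the RNA. The authors' deposited gene table gives signed fold changes (named score here) and FDR-adjusted p-values (the 48 h column partly as text) for each time against the control, and served for names alone. A gene was linked where its 3 folds and 3 p-values equalled those of exactly 1 probe set in an ordinary linear model without the dog, within 0.05 and 0.001. Of 17107 genes 10523 met this, and 10512 (61.4%) were used after 11 were dropped.

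After 175 array controls were left out, the R package limma (3.58.1, R 4.3.3) was run on 42860 probe sets and all 32 arrays, modelling 4 groups and a fixed effect per dog (21 residual degrees of freedom) and again with the muscle score added (20). Both tests were 2-sided with Benjamini-Hochberg adjustment over all probe sets. For array measures, an exact permutation test flipped the sign of each dog's difference. The labels name the dog of each biopsy, which pairs the samples. Deviations from the group means correlated between the 6 h and 48 h arrays of a dog at -0.03 to 0.27, with 5 of 8 above 0.1. The fits were tested on simulated data.

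The members, the 45 gene lists and the tests were chosen with earlier results of these data known. Named genes are the 12 largest rises and falls that were called, kept their sign in at least 7 of 8 dogs and had a mean of at least 6 in the higher group, a short list of fixed genes, and up to 4 members per list, called ones first. Of these, 2 genes are not reported here. Other list members given with a bare difference, such as LCN2, CCL13, CRLF2 and UBE2C, were chosen after their values were seen. The number of arrays limits the precision. Alternatives covered muscle, RNA integrity, the block, normalization, a filter on dim probe sets, the variance model, array weights and each dog left out.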

Additional observations from a re-analysis of the deposited data

Results flagged for a closer look

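A value is given here where the highest or the lowest of 8 dogs stood apart from the nearest other dog by more than Dixon's 95% critical share of the group's range. This held for 33 of 400 groups of 8 examined, and chance alone gives about 1 in 20. The values are log2 signals, each from 1 biopsy.

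The 6 h biopsy of dog 6 was the highest of its group for CLEC3B (11.87, next 10.36), OGN (8.19, next 6.20), IL33 (9.03, next 7.11), TAGLN (11.97), MFAP4 (9.19), CDH19 (3.56) and GSTT1 (8.90, next 6.24). It was the lowest for IL1R1 (4.33), SDC1 (6.86), DSC3 (6.50, next 7.68), SREBF2 (6.05), KIF20A (5.13), BUB1B (3.90) and RORA (5.35). These are 14 of the 33. At 48 h the biopsy of dog 6 was the lowest for MYOC (5.11), CLDN1 (6.48), SDC1 (6.79), VNN1 (4.22) and KRT72 (4.44) and the highest for PADI4 (5.31, next 3.43), HDC (6.18) and the GAPDH control difference (2.15). The differences of CLEC3B, OGN and IL33 without dog 6 were -2.25, -1.34 and 1.87, and each stayed called there. The OGN call ended without dog 4.

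In the other dogs the 6 h values that stood apart were CCL17 in dog 2 (6.40, next 4.98), IL4 in dog 2 (3.63), GBP5 in dog 2 (4.60), IL13 in dog 7 (6.33, next 4.95), IL9 in dog 8 (2.03), IL36G in dog 1 (4.29) and AHSP in dog 4 (3.34). At 48 h they were TIMP1 in dog 7 (9.39, next 10.54), LMOD1 in dog 2 (2.71), CASP14 in dog 2 (5.43) and IL37 in dog 5 (5.12, next 6.77).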

How the results depend on the processing

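Against 5484 calls (3215 rises, 2269 falls), the within-dog fit alone gave 12603 (6774 and 5829), both fits without the muscle-rich arrays 220 (170 and 50), the within-dog fit alone without them 1604 (1005 and 599), dogs 4, 7 and 8 alone 661 (379 and 282), the actin covariate 349 (147 and 202), and the 16 arrays of the 2 times alone 11 (10 and 1). The last drops 16 arrays, and IL13RA2 and S100A8 are the 2 of 117 named calls left there. In the 16 arrays kept, the muscle score was lower at 48 h in all 8 dogs and spanned only 3.38 to 3.71 at 48 h. Muscle and time are thus hard to separate in that fit, and the part of each in the loss was not tested. Array weights gave 3730 falls. Leaving out 1 dog gave 2098 (without dog 4) to 5746 calls, 1431 to 3451 rises and 667 to 2546 falls, and 65 of the 117 named calls held in all 8 of these fits. Without the dog as a replicate block there were 4657 calls (2890 and 1767), and 19 of the 117 named calls ended. The alternatives without the muscle-rich arrays in the within-dog fit alone, with dogs 4, 7 and 8 alone and without the 24 h array of dog 5 were chosen after the data were examined. CSRP3, a muscle gene, had a difference of 1.26 in the muscle-adjusted fit alone against -5.38 within dogs, and LGR5 one of 0.0558 with the actin covariate against -0.27. The second actin measure, -0.01 over all dogs, ranged from -0.0497 to 0.0635 with 1 dog left out, with 0.0635 without dog 2 and 0.0112 without dog 4. The causes were not tested. Signals below the array median limit the size of differences.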
